A study of Mus musculus with 4 samples.

Results

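Prdm16, its paralog Mecom, Prdm1 and Prdm4 are 4 genes of the Prdm family, and they were followed here through all 9 probe sets that the platform annotation gives to 1 of these genes alone, of 45101 probe sets and 18194 genes on the arrays. Mouse ESCs carrying a Rax::GFP reporter were aggregated in serum-free floating culture (SFEBq) and dissociated at day 4.5, and the cells were sorted by FACS into a Rax::GFP+ fraction, taken as rostral, and a Rax::GFP- fraction, taken as presumptive caudal. RNA of each fraction, pooled from many aggregates, was measured on 2 Affymetrix mouse arrays per fraction, described by the study as biological duplicates. The labels name no further treatment of either fraction, and the GFP- gate takes every cell that lacks the reporter, whatever its type. The genes were selected on the values of these same arrays, where Prdm16 was among the strongest genes of the GFP+ cells, so the differences between the fractions are a description of the 4 genes and no p-value is given for them.

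Prdm proteins carry a PR domain, which is related to the SET domain of histone lysine methyltransferases, and most of them also carry zinc fingers that bind DNA. Some members methylate histones themselves, while others act by recruiting corepressors and chromatin enzymes. Prdm16 is known for driving the brown fat fate and for maintaining blood and neural stem cells, and in the developing forebrain it marks radial glia. Mecom, also called Evi1 or Prdm3, maintains blood stem cells and is an oncogene of myeloid leukemia. It is transcribed from an upstream start, which gives a protein with the PR domain, and from a downstream start, which gives one without it. Prdm1, also called Blimp1, acts in primordial germ cells and in plasma cells. Prdm4 is widely expressed and recruits the arginine methyltransferase Prmt5 in neural stem cells.

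The promoters of the paralogs Prdm16 and Mecom are shown because these were the members with the largest differences between the fractions at their most expressed probe sets, and because Mecom has 2 starts. The windows come from RefSeq (GRCm38.p6) and reach from 250 bases before to 50 bases after a start, and all 4 members matched the table, with 6 windows in all. The capitals mark the longest run of bases shared by windows of different member genes.
Prdm16 (chr4:154636824-154637123, minus strand): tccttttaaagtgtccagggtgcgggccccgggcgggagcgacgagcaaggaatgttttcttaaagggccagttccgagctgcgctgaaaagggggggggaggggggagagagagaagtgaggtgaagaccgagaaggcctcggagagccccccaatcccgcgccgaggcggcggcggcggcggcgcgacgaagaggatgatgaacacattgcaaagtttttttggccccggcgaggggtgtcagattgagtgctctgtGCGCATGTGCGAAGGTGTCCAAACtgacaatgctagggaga
Mecom upstream start (chr3:30509710-30510009, minus strand): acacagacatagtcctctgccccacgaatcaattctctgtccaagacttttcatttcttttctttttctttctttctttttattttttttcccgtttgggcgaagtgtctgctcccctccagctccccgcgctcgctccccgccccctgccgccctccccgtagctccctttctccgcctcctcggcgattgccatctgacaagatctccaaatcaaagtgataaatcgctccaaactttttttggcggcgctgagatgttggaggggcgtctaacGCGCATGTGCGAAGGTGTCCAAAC
Mecom downstream start (chr3:30013155-30013454, minus strand): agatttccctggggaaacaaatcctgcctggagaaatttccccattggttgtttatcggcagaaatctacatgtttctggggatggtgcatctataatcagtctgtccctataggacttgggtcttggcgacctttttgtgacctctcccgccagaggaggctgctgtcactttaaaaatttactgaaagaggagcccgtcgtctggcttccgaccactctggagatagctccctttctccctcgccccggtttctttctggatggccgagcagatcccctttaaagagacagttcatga

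The shared run was 24 bases long and began 9 bases downstream of the Prdm16 start and 26 bases downstream of the upstream Mecom start, where it reached the end of the window. Of 32851 windows in the table it was found, on either strand, in 2, those of Prdm16 and of the upstream Mecom start. The next longest run between windows of 2 member genes had 10 bases. The Prdm16 window was 61.0% G or C with 24 CpG, the upstream Mecom window 52.0% with 19 CpG and the downstream Mecom window 49.7% with 9 CpG, against medians of 52.7% and 7 CpG over all windows. On both strands, the homeodomain core TAATTA was in none of the 6 member windows and in 5.29% of all windows, and the Sox core AACAAT was in none of them and in 10.7% of all. The GC box GGGCGG was in the windows of Prdm16 and the upstream Mecom start and in both overlapping windows of Prdm4, and in 35.7% of all windows, while the nuclear receptor motif AGGTCA was in the window of the downstream Mecom start and in 16.3% of all. The E-box CACGTG, held by 7.15% of all windows, and the TATA box TATAAA, held by 13.6%, were in none of the member windows. A match or its absence describes only these letters in these windows.

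The direction of the difference matched the labels at all 5 regional markers examined. Rax, whose reporter was sorted, Six3, Lhx2 and Six6 were higher in GFP+ cells and the caudal marker Irx3 was higher in GFP- cells (limma, adjusted p between 0.00551 and 0.0389). Without GFP+ replicate 1, 3 of them passed, and without GFP+ replicate 2, 4 passed. Rostral markers were not absent from the GFP- arrays. Six3 was at 11.24 and 11.57 there, Lhx2 at 9.99 and 10.03 and Rax at 8.58 and 8.88, all above the array medians. Six6, at 5.17 and 4.95, lay below them. The GFP- cells also held markers of other cell types. Of 10 endoderm markers, 8 were higher in GFP- cells, and the mean log2 value over the list was 6.02 and 6.51 on the GFP+ arrays and 8.26 and 8.39 on the GFP- arrays. Of 7 pluripotency markers, 5 were higher in GFP- cells, with list means of 7.18 and 6.84 against 9.38 and 9.30. Over all genes, limma called 5.40% higher in GFP- cells. Afp, an endoderm marker, was at 3.90 and 6.48 on the 2 GFP+ arrays, so that these differed from each other. In a bulk sample, fewer cells of a type and less RNA per cell cannot be told apart. The part of any cells of other types in the differences below was not tested. The deposited values were made by RMA, which gives every array a common distribution, and array medians lay between 5.84 and 5.89.

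Prdm16 was much higher in GFP+ cells at its most expressed probe set. Probe set 1440870_at had RMA values (log2) of 7.69 and 7.57 on the GFP+ arrays and 5.39 and 5.44 on the GFP- arrays. The replicates of a fraction lay close together and the fractions did not overlap. The means were 7.63 ± 0.09 (SD, n = 2) and 5.41 ± 0.04 (SD, n = 2), a log2 difference (GFP- minus GFP+) of -2.21 with a standard error of 0.08, or a 4.64-fold higher level in GFP+ cells. In the order of differences toward GFP+ cells, with each gene taken by its most expressed probe set, Prdm16 was number 7 of 18194 genes. The gene just before it was Prss23, a serine protease (log2 difference -2.23), and the gene just after it was S1pr3, a sphingosine-1-phosphate receptor (-2.17).

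The other Prdm16 probe sets showed a smaller difference or none. At 1440745_at the values were 5.85 and 5.84 in GFP+ cells against 5.06 and 5.18 in the GFP- fraction, again without overlap, and the log2 difference was -0.73 with a standard error of 0.08, a 1.65-fold higher level in GFP+ cells. At 1429309_at the values were 5.41 and 5.81 against 5.58 and 5.66, and at 1429308_at they were 4.01 and 4.64 against 4.29 and 4.23. At both of these the 2 GFP+ arrays lay on either side of the GFP- arrays, so the fractions overlapped. Their log2 differences were 0.01 with a standard error of 0.15 and -0.06 with a standard error of 0.22. Without GFP+ replicate 1 they became -0.19 and -0.38, and without GFP+ replicate 2 they became 0.20 and 0.25, so that their sign was set by a single array. Averaged over its 4 probe sets, Prdm16 differed by -0.75. The sources used here do not place these probe sets along the transcripts.

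Mecom was also higher in GFP+ cells at its most expressed probe set. Probe set 1438325_at had values of 8.52 and 8.44 on the GFP+ arrays and 7.42 and 7.58 on the GFP- arrays. Both GFP+ arrays lay above both GFP- arrays, with means of 8.48 ± 0.06 (SD, n = 2) and 7.50 ± 0.11 (SD, n = 2). The log2 difference was -0.98 with a standard error of 0.09, a 1.98-fold higher level in GFP+ cells, and Mecom was number 132 in the order of differences. The other probe sets of Mecom went the opposite way or overlapped. At 1422295_at the values were 5.44 and 5.53 against 5.44 and 5.74, where the fractions overlapped, with a log2 difference of 0.10 and a standard error of 0.12. Without GFP- replicate 2 that difference became -0.05. At 1423011_at, the dimmest member probe set, they were 2.73 and 2.81 against 2.94 and 3.15, a log2 difference of 0.28 with a standard error of 0.10, and both GFP- arrays were the higher ones. Averaged over its 3 probe sets, Mecom differed by -0.20.

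Prdm1 had 1 probe set, 1420425_at, with values of 5.80 and 5.95 in GFP+ cells against 5.25 and 5.29 in the GFP- fraction. The GFP+ arrays were the higher ones, with means of 5.87 ± 0.11 (SD, n = 2) and 5.27 ± 0.03 (SD, n = 2). The probe set was dim, and only the value on GFP+ replicate 2 lay above its array median. The log2 difference was -0.60 with a standard error of 0.09, a 1.52-fold higher level in GFP+ cells, and Prdm1 was number 369 in the order. Prdm4, also with 1 probe set, 1452208_at, had values of 10.02 and 10.03 in GFP+ cells against 10.05 and 10.03 in the GFP- fraction. All 4 arrays lay within a narrow range, and the log2 difference of 0.02 was smaller than its standard error of 0.07. At number 7617 in the order, Prdm4 was far from the other members.

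**Figure D1:**
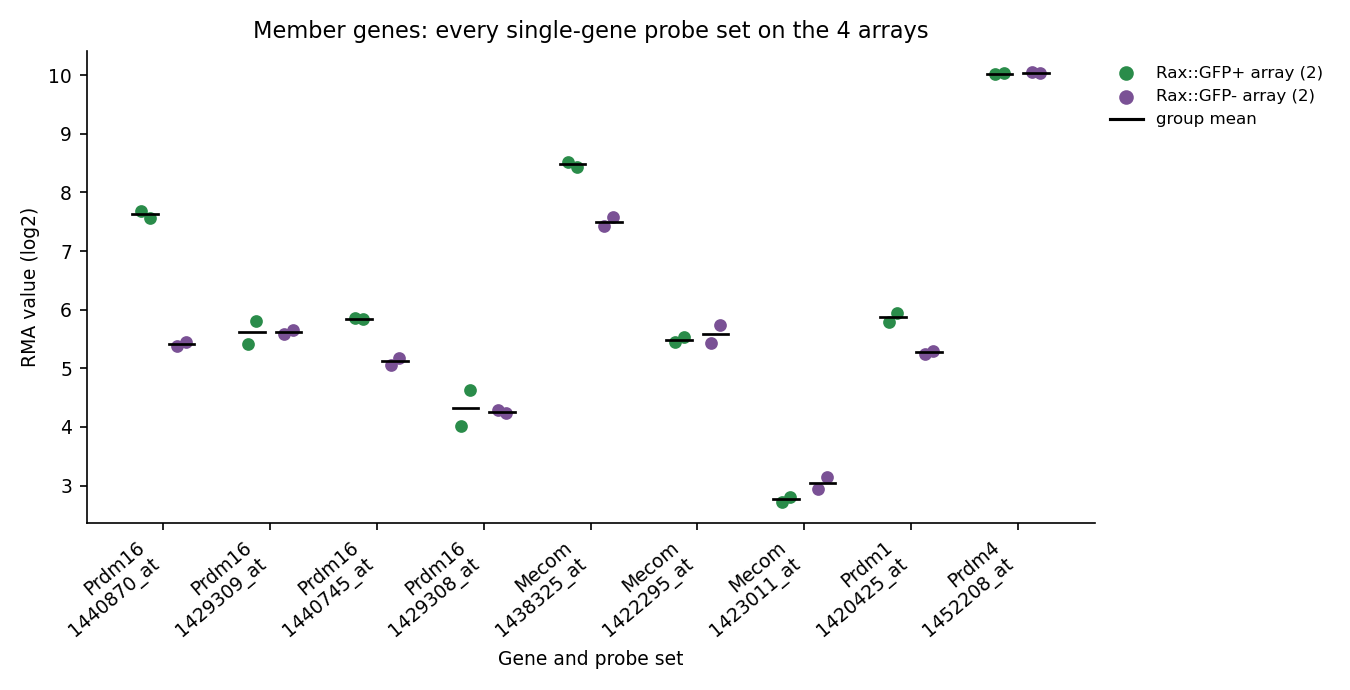
RMA value (log2, y axis) of every probe set of the 4 member genes (x axis) on the 2 GFP+ arrays (green) and the 2 GFP- arrays (purple), with bars at the group means. Prdm16 1440870_at shows the widest separation, at 7.63 against 5.41, while Prdm4 lies at 10.03 and 10.04.

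Across the members, 4 of 9 probe sets were higher in GFP+ cells without overlap, 2 were higher in GFP- cells without overlap and 3 overlapped. The fractions did not overlap at 57.3% of the probe sets on the arrays, with GFP+ cells higher at 24.9% and GFP- cells higher at 32.5%. By the limma call used for all probe sets (adjusted p under 0.05), 4 of the 9 were lower in GFP- cells and none was higher, where 3.82% and 3.64% of all probe sets were, 7.47% together. Since this contrast chose the genes, nothing is read from these counts. None of the 9 was removed by a filter, as none was applied.

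Brightness differed widely between the member probe sets, and it reflects the probes as well as the transcripts. On all 4 arrays, Prdm4 and the most expressed Mecom probe set lay above the array median, and 5 of the 9 probe sets lay below it. The mean of 1440870_at (Prdm16) was higher than that of 58.5% of all probe sets, and the means of the others ranged from 3.65% for Mecom 1423011_at to 89.1% for Prdm4. Of probe sets below the median on all arrays, 2.63% were called by limma, against 9.44% of those above it. Replicate SDs of the member probe sets ran from 0.0049 for Prdm4 to 0.439 for Prdm16 1429308_at, where the medians over all probe sets were 0.0814 in GFP+ and 0.0706 in GFP- cells. A gene with both called and uncalled probe sets was common on these arrays. Of 831 genes with 2 or more probe sets and a call at the most expressed one, 674 (81.1%) had at least 1 other probe set that was not called. Few probe sets were called at all, and this share does not count how often the differences were absent or opposite.

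**Figure D2:**
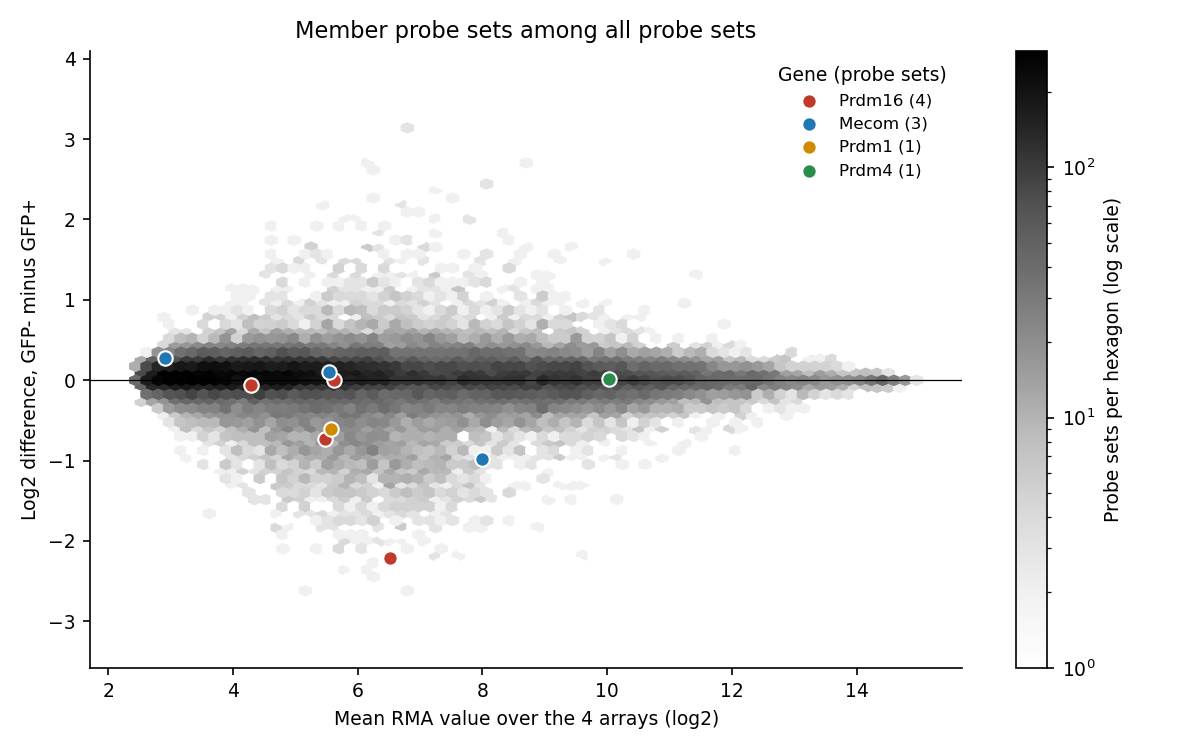
Log2 difference of GFP- minus GFP+ cells (y axis) against the mean RMA value over the 4 arrays (log2, x axis), with all 45101 probe sets as grey hexagons shaded by their number and the 9 member probe sets as colored circles. Prdm16 1440870_at lies near the lower edge of the cloud at -2.21, and the other members lie between -0.98 and 0.28.

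The rest of the family was tested in the same limma fit. It was represented by 8 other Prdm genes, with 13 probe sets in all. By the most expressed probe set, 1 of the 8 passed toward GFP- cells, none toward GFP+ cells and 7 did not pass, where 8.02% of all genes passed, 5.40% higher and 2.63% lower. Their median log2 difference was 0.06, beside 0.05 over all genes. The gene that passed was Prdm8, a transcriptional repressor of neurons in the cortex and retina. Its values were 3.31 and 3.34 in GFP+ cells against 4.24 and 3.99 in the GFP- fraction, all far below the array medians. The log2 difference was 0.78 (standard error 0.11, limma adjusted p = 0.0302). Prdm8 did not pass without any 1 of the 4 arrays, with an adjusted p between 0.0714 and 0.158.

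Prdm14, a factor of naive pluripotency and primordial germ cells, was also dim. Its values were 3.63 and 3.61 in GFP+ cells against 4.08 and 4.45 in the GFP- fraction, all below the array medians. Both GFP- arrays were higher, and the log2 difference of 0.64 had an adjusted p of 0.0693 by limma. Prdm11 differed by 0.27 (adjusted p = 0.181) and, at its other probe set, by 0.49 (adjusted p = 0.0955). Prdm2, or Riz, a tumor suppressor with a methyltransferase activity, was at 10.54 and 10.34 against 10.26 and 10.20, a log2 difference of -0.21 (adjusted p = 0.257). Its second probe set, 1453068_at, differed by -0.25 (adjusted p = 0.118), and 1444123_at by 0.05. The remaining genes differed little at their most expressed probe sets. Prdm6, a repressor of smooth muscle genes, differed by 0.11 (adjusted p = 0.515), and Prdm10 by -0.05 (adjusted p = 0.735). Prdm15, a factor of pluripotent cells, differed by -0.01 (adjusted p = 0.938), and Prdm9, which sets the sites of meiotic recombination, differed by less than its standard error of 0.13.

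**Figure D3:**
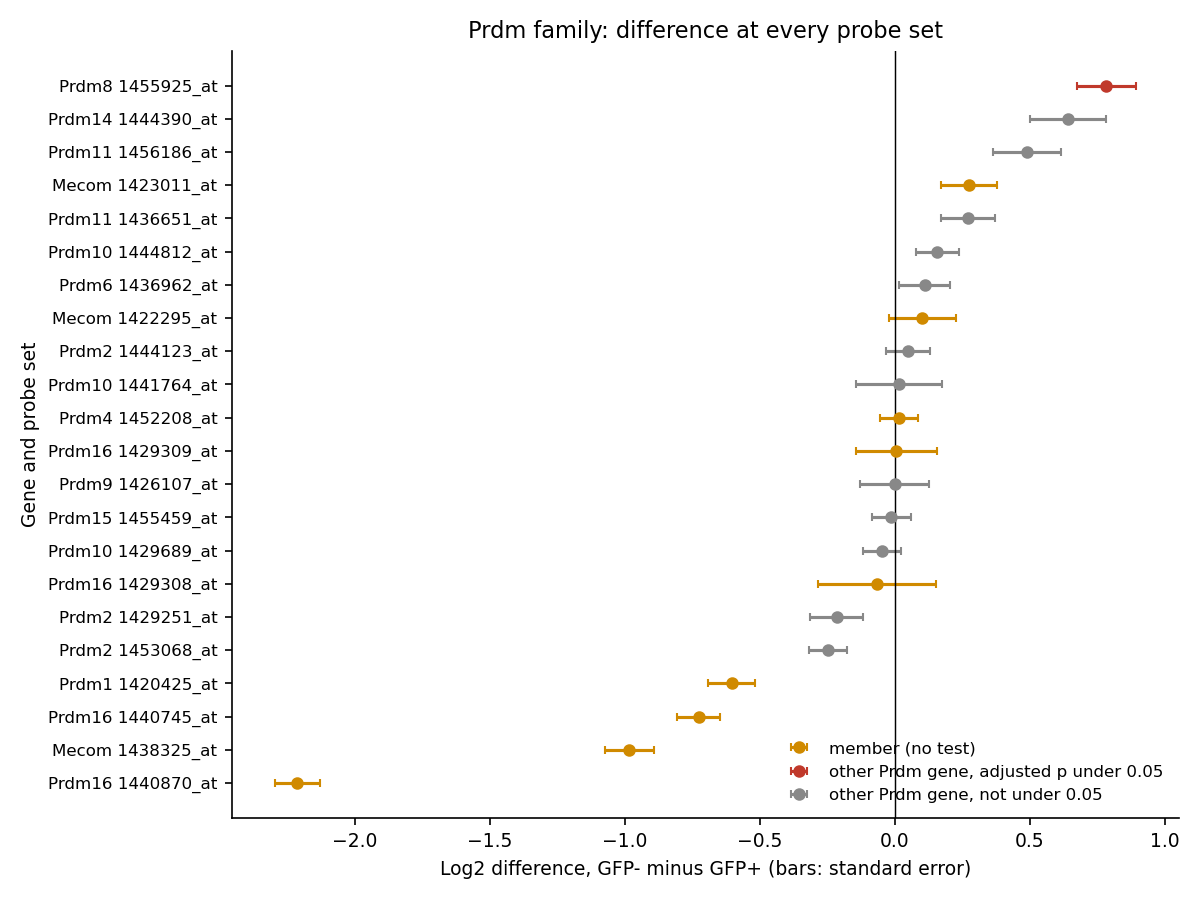
Log2 difference, GFP- minus GFP+ (x axis, with standard errors as bars), at all 22 probe sets of the Prdm family (y axis). Members, given without a test, are orange. Of the other genes Prdm8, at 0.78, passed limma and is red, and the rest are grey.

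Beside Prdm16 lies Prdm16os, a long noncoding RNA gene on the opposite strand, named after its values were seen, whose start is 707 bases from the Prdm16 start in the RefSeq table. Its probe set was near the floor of the arrays, with values of 2.54 and 2.49 in GFP+ cells against 2.61 and 2.80 in the GFP- fraction. The log2 difference was 0.19 (limma adjusted p = 0.284), so that no difference like that of Prdm16 was detectable there.

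Genes listed as partners of the Prdm16 or Mecom protein changed in both directions. Of 14 measured partners, 3 passed toward GFP- cells and 2 toward GFP+ cells, with a median log2 difference of 0.00. Over all genes, 5.40% passed toward GFP- cells and 2.63% toward GFP+ cells. Skil, a corepressor of the Ski family that restrains Smad signaling, was at 9.58 and 9.47 in GFP+ cells against 10.42 and 10.59 in the GFP- fraction. The log2 difference was 0.98 (limma adjusted p = 0.0155), and averaged over its probe sets Skil differed by 0.66. Of the CtBP corepressors, which bind both proteins, Ctbp2 was at 11.83 on both GFP+ arrays and at 12.50 and 12.36 on the GFP- arrays, a difference of 0.60 (adjusted p = 0.0310). Ctbp1 differed by -0.25 (adjusted p = 0.111), with both GFP- arrays lower. Cebpb, a partner of Prdm16 in the brown fat fate, was higher in GFP- cells (0.66, adjusted p = 0.0246). Zfp516, a zinc finger partner in the same fate, was lower (-0.51, adjusted p = 0.0334), as was the Mediator subunit Med1, named after its values were seen (-0.40, adjusted p = 0.0471). Hdac2, a histone deacetylase, differed by -0.01 (adjusted p = 0.973). Ski, a listed relative of Skil, named after its values were seen, differed by 0.08 (adjusted p = 0.536). Without GFP+ replicate 1 none of the 14 passed, with 5 at an unadjusted p under 0.05 by limma, and without GFP+ replicate 2 only 1, toward GFP- cells, passed.

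Of 15 genes whose proteins work with Prdm1, Prdm4 or Prdm14, 1 was higher and 1 was lower in GFP- cells. Tfap2c, which acts with Prdm1 and Prdm14 in the germ line, had a log2 difference of 0.86 (adjusted p = 0.0124). It was at 4.88 and 4.92 in GFP+ cells against 5.73 and 5.79 in the GFP- fraction, all below the array medians. Tle4, a Groucho corepressor, was lower in GFP- cells (-0.46, adjusted p = 0.0367). Without GFP+ replicate 1 none of the 15 passed, with 3 at an unadjusted p under 0.05 by limma, and without GFP+ replicate 2 only 1, toward GFP- cells, passed. Of all genes, 8.02% passed. The demethylase Kdm1a differed by 0.04 (adjusted p = 0.749) and Ezh2, the enzyme of the Polycomb complex, by -0.36 (adjusted p = 0.0646). None of 5 measured H3K9 methyltransferases passed limma, 1 had an unadjusted p under 0.05, and the intensity trend called 1 as lower. Ehmt1 and Ehmt2, which act as a complex, differed by -0.25 (adjusted p = 0.157) and 0.005 (adjusted p = 0.983).

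Genes of radial glia, the forebrain progenitors in which Prdm16 is known to be expressed, were split between the fractions. Of 11 measured genes, 4 were lower and 3 were higher in GFP- cells, where 2.63% of all genes were lower and 5.40% higher. Pax6, a homeobox factor of forebrain progenitors, was lower in GFP- cells (log2 difference -1.45, adjusted p = 0.0117), and so was the Notch target Hes5 (-1.07, adjusted p = 0.00928). Fabp7, a fatty acid binding protein of radial glia, was higher in GFP- cells (2.58, adjusted p = 0.00761), and so was the glutamate transporter Slc1a3 (1.13, adjusted p = 0.0247). Prom1 and Sox9 differed by -0.34 (adjusted p = 0.0667) and -0.42 (adjusted p = 0.0672). Since Prdm16 was selected as high in GFP+ cells, nothing is read from its direction beside these genes. Without GFP+ replicate 1, 2 genes were lower and 1 was higher. Of 7 neural plate markers, 4 passed toward GFP+ cells and none toward GFP- cells. They were Pax6 and Hes5, which are in both lists and were given above, Cdh2, or N-cadherin (-0.96), and Sox1 (-0.71). Without either GFP+ replicate, 2 of the 7 passed, both toward GFP+ cells.

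Genes of brown fat, blood and plasma cells, where Prdm factors are known to act, did not pass, with the exception of 1 brown fat gene. Of 12 brown fat genes, 10 lay below the median on all arrays, and Cox7a1, a subunit of cytochrome oxidase, was the 1 gene that passed, higher in GFP- cells (0.55, adjusted p = 0.0275). That call was lost without any 1 array, and 1 of 12 is close to the 8.02% of all genes that passed. Ucp1, the uncoupling protein that defines brown fat, named for that role and not by its values, was at 3.89 and 4.04 in GFP+ cells against 3.99 and 3.87 in the GFP- fraction. Cidea and Cox8b differed by 0.28 (adjusted p = 0.388) and -0.14 (adjusted p = 0.602). None of 8 blood and endothelial genes passed limma, 3 had an unadjusted p under 0.05, while 1 was called higher without GFP+ replicate 2 and 2 with the mean of a gene's probe sets. None of 6 genes of B cells and plasma cells passed, and 0 had an unadjusted p under 0.05. Runx1 and Kdr, of the blood and endothelial list, differed by 0.12 (adjusted p = 0.603) and -0.08 (adjusted p = 0.683), and Xbp1 and Sdc1, of the plasma cell list, by 0.18 (adjusted p = 0.236) and -0.03 (adjusted p = 0.868).

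Early germ cell genes went mostly toward GFP- cells. Of 8 measured genes, 4 passed toward GFP- cells and none toward GFP+ cells, with a median log2 difference of 0.57. They were Ddx4, an RNA helicase of germ cells (1.31, adjusted p = 0.0420), Dppa3, or Stella (0.92, adjusted p = 0.0290), Tfap2c, and Dazl, an RNA-binding protein (0.54, adjusted p = 0.0333). Tfap2c, Dppa3 and Dazl lay below the array median on all 4 arrays, and Ddx4 lay below it on both GFP+ arrays. Over all genes, 5.40% passed toward GFP- cells and 2.63% toward GFP+ cells. Kit and Ifitm3 differed by 0.59 (adjusted p = 0.0747) and 0.02 (adjusted p = 0.914). Alpl, an alkaline phosphatase of germ cells, named after its values were seen, differed by -0.46 (adjusted p = 0.0769) with both GFP+ arrays higher, and 1 gene of the list was called lower in GFP- cells with the intensity trend and with the mean of probe sets. Without GFP+ replicate 1 none of them passed, with 7 at an unadjusted p under 0.05 by limma, and without GFP+ replicate 2 the count was 2. Of 6 neural crest markers, 2 were higher, Ets1 (2.70) and Foxd3 (1.93), and 1, Snai2 (-0.48), was lower in GFP- cells, while Sox10, which defines migrating crest, differed by -0.02 (adjusted p = 0.911). The call of Snai2 was lost without either GFP+ replicate.

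**Figure D4:**
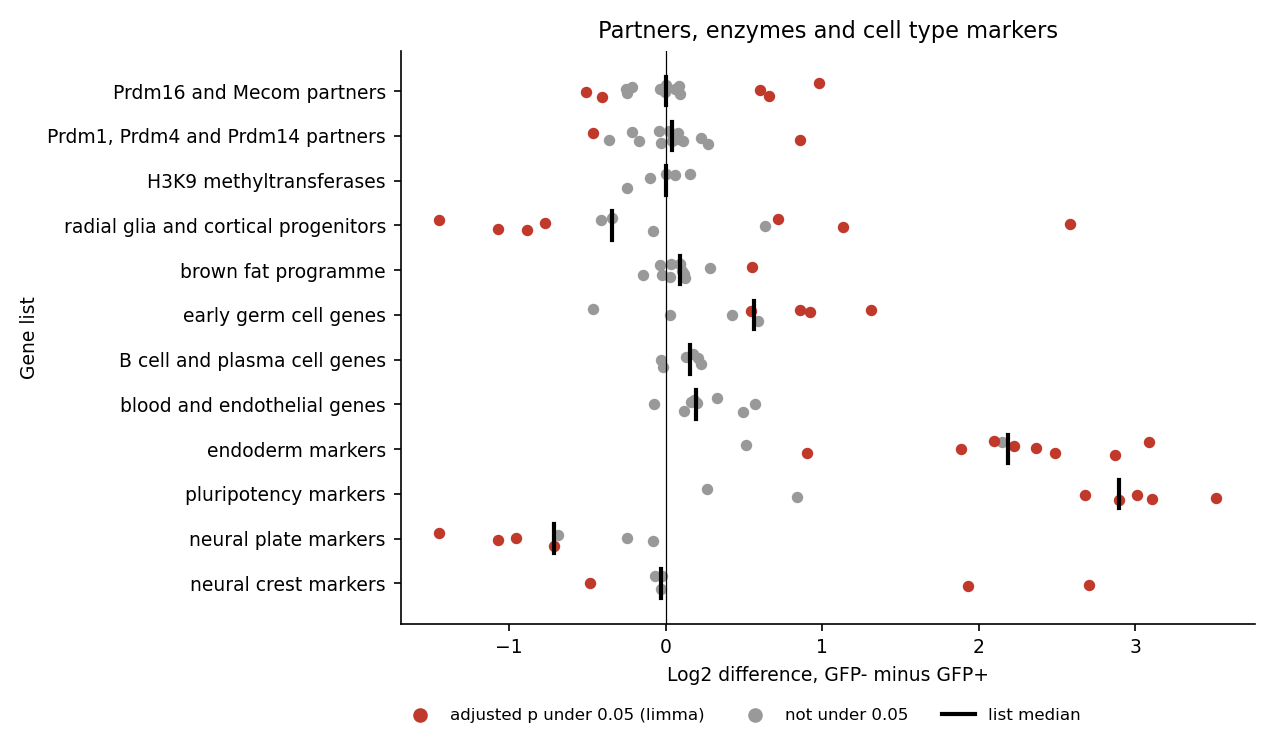
Genes of 12 lists (y axis) by their log2 difference, GFP- minus GFP+ (x axis), at the brightest probe set of each gene. Red circles have an adjusted p under 0.05 by limma, grey circles do not, and black bars are list medians, at 0.00 for partners of Prdm16 and Mecom, 0.57 for early germ cell genes and 2.89 for pluripotency markers.

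The genes whose pattern over the 4 arrays was most like that of Prdm16 were sought by the root mean square distance after each gene was centred on its own mean. The closest was Nr2f2, the orphan nuclear receptor COUP-TFII, at a distance of 0.0946 on the log2 scale, with values of 10.78, 10.48, 8.54 and 8.40 on GFP+ replicates 1 and 2 and GFP- replicates 1 and 2. Prss23 followed at 0.101, the collagen gene Col1a2 at 0.112, S1pr3 at 0.122 and Phlda1, a target of growth factor signaling, at 0.124. Pcsk5, a proprotein convertase, was at 0.131, the transcription factor Sox6 at 0.145 and Rax at 0.155. All 8 were higher on both GFP+ arrays, and the largest of their log2 differences was that of Sox6 at -2.45. With 4 arrays in 2 fractions, this distance measures little more than a difference of like size.

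**Figure D5:**
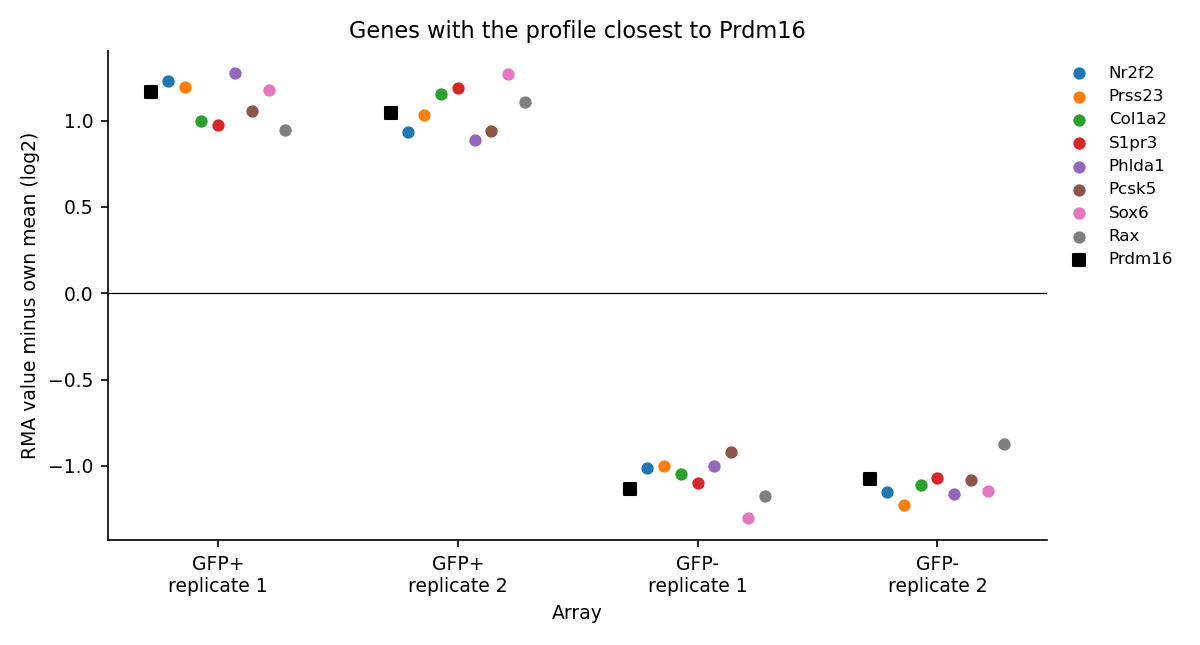
RMA value minus the gene's own mean (log2, y axis) on each of the 4 arrays (x axis) for Prdm16 (black squares) and the 8 genes closest to it (circles, colored by gene). All 9 genes lie above 0 on both GFP+ arrays and below 0 on both GFP- arrays.

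The precision is limited by the 2 arrays per fraction, and the smallest p that exact permutation of the 4 labels allows is 0.333. All limma calls given here were lost without either GFP- array, as were those of every other probe set, and with limma 7704 and 7697 probe sets had an unadjusted p under 0.05 without GFP- replicate 1 and without GFP- replicate 2. Without any 1 array, the differences of the most expressed probe sets were -2.27 to -2.15 for Prdm16, -1.06 to -0.91 for Mecom and -0.68 to -0.53 for Prdm1. Their sign could not change, because the fractions did not overlap at these probe sets.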

How the data were processed

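Total RNA of sorted day-4.5 Rax::GFP+ and Rax::GFP- cells was hybridized to GeneChip Mouse Genome arrays, 2 per group. The authors summarized them by RMA, and the deposited values are log2 expression values, 1 per probe set and array. The submitters' processing notes name R 2.13.0. Depth is not defined for arrays, and their number limits the precision.

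For the 2 groups, limma 3.58.1 (R 4.3.3) was run on the log2 values without a replicate block or a filter. Benjamini-Hochberg adjustment covered all 45101 probe sets, and calls were made under 0.05. There were 2 residual and 2.52 prior degrees of freedom, and the code was tested on simulated data. The platform annotation gave 1 symbol to 34958 probe sets, several to 932 and none here to 9211, and 0 symbols changed against RefSeq GRCm38.p6. The most expressed probe set stood for a gene. The study describes biological duplicates from pooled aggregates, so a GFP+ and a GFP- array may come from the same experiment. The labels do not say whether a replicate number marks such a pair, and with a replicate block 0 probe sets passed.

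The members and the 14 other lists were chosen with earlier results of these data known. Named were all member probe sets, every other Prdm gene measured, up to 4 genes of a list past the threshold and 2 bright ones that did not pass, the neighbors of Prdm16 in the order of differences and the 8 genes nearest to it. Hes1, Gli3 and Vim, also called, are not described. For the endoderm, pluripotency and regional lists, counts are given. The alternatives were the replicate block, a filter keeping probe sets at 5 or more on 2 or more arrays, median centring, quantile normalization, an intensity trend, array weights, the mean of a gene's probe sets, and leaving out each array, when the lone array of a group was assumed to vary like the other group. No genome was used. Promoter windows and motif counts were made with Python 3.11.15.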

Additional observations from a re-analysis of the deposited data

How the results depend on the processing

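The log2 differences of Prdm16, Mecom and Prdm1 kept their direction under all 11 alternatives, but most of these could not have changed it. The replicate block, filter, intensity trend and array weights left the differences at -2.21, -0.98 and -0.60. Leaving out 1 array cannot change a sign where the fractions do not overlap, and Prdm1 has only 1 probe set to average. The genes were also selected on this contrast, so nothing is read from the kept directions. Averaged over its probe sets, Prdm16 differed by -0.75 and Mecom by -0.20. Prdm4 differed by 0.05 with arrays centred on their medians, by 0.01 after quantile normalization, and by 0.01 to 0.02 when 1 array was left out. Leaving out 1 array gave -0.68 to -0.53 for Prdm1. The count of called probe sets, 3367, became 6962 with an intensity trend, 0 with the replicate block (11019 at an unadjusted p under 0.05 by limma) and 0 to 2978 when 1 array was left out. With the replicate block, 0 of the other Prdm genes and 0 of the listed genes passed, against 1 and 41. The deviations of same-numbered arrays from their group means had a correlation of -0.0514 over probe sets, and the labels tie the numbers to no shared sort. The other Prdm genes that passed were 0 with the filter, which removed Prdm8 and Prdm14 before the fit, 2 (Prdm8 and Prdm14) with the intensity trend and with the mean of probe sets, and 0 without any 1 array. Of the listed genes, 0 to 31 passed when 1 array was left out, with 21 without GFP+ replicate 1. The causes were not tested. Of probe sets below the median on all arrays 2.63% were called, and of those above it 9.44%.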
